A study of Caenorhabditis elegans with 4 samples.

Results

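The widest called NURF-1 peaks in Caenorhabditis elegans larvae were examined, taken as those of 1200 bp or more in the whole-series peak list. There were 434 such wide peaks among the 11781 nuclear peaks. They were chosen by width alone, from the deposited first and last bases, on chromosomes I to V and X. The 12 peaks that touch the first or last base of a chromosome were left out, and none of those was wide. The wide peaks therefore made up 3.69% (95% Wilson interval 3.36 to 4.04) of 11769 peaks, and the other 11335 peaks are called narrower peaks. Width chose the members, so width is given as a description, and no test was made between wide and narrower peaks. Intervals cover counting error only, and peaks of one list are not replicates of the experiment.

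The worm protein NURF-1 corresponds to mammalian BPTF. It is the scaffold subunit of NURF, a remodelling complex that slides nucleosomes with an ISWI-class ATPase. In flies and mammals this subunit carries domains that bind modified histone tails at active genes. In the worm, nurf-1 is known for roles in vulval development and in the germline. A peak caller reports an interval wherever reads pile up beyond a background level, so adjoining stretches of enrichment can appear in one list as a single interval and in another as several.

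The study held 2 NURF-1 chromatin immunoprecipitation (ChIP) libraries and 2 input DNA libraries. All 4 came from N2 larvae of wild-type genotype at the L3 stage, a mixed population of males and hermaphrodites kept at 20 °C. The ChIP used an affinity-purified rabbit polyclonal antibody, SDQ2940, on chromatin crosslinked for 20 minutes with EGS, a long-arm crosslinker, and for 10 minutes more with EGS plus formaldehyde. Whole larvae were used, so signal from different tissues is pooled, and nothing in the labels tells if replicates are separate cultures. Nuclear peaks numbered 4850 for replicate 1, 11765 for replicate 2 and 11781 for the whole series. No read counts come with the lists and no input values were analysed here, so the depth behind a peak is unknown. The sources used here do not tell how the replicates entered the whole-series list. Coordinates are on WormBase WS220. Only a gene table of another build was at hand, so no peak was matched to a gene and no sequence was read.

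The wide peaks had a median width of 1411 bp, with quartiles at 1277.5 and 1700.5 bp and a range of 1201 to 11119 bp. The narrower peaks had a median of 334 bp and a range of 146 to 1199 bp. Together the wide peaks held 699 kb, or 12.8% of all peak bases, against 4763 kb in narrower peaks. The threshold falls within a gradual decline in numbers. There were 131 peaks of 1200 to 1299 bp, against 152 of 1100 to 1199 bp and 240 of 1000 to 1099 bp. Beyond the threshold, 127 peaks measured 1500 to 1999 bp, 37 measured 2000 to 2999 bp and 10 measured 3000 bp or more. The members just inside the threshold were 2 peaks of 1201 bp and one of 1202 bp, with scores of 191.06, 33.41 and 326.62. Just outside it, 3 peaks of 1199 bp scored 200.96, 95.45 and 277.12. Peaks on either side of the threshold thus overlapped in score.

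The score deposited by the authors was read only within a list, since its scale is not stated. Wide peaks had a median score of 146.76 (7.32 to 349.58), against 15.91 (1.35 to 345.16) in narrower peaks, which places the median wide peak at the 89.65th rank percentile of the list. Of the wide peaks, 421 (97.0%, 94.9 to 98.2) scored at or above the median of all peaks. In the best-scored 10% of the list there were 211 wide peaks, 17.9% (15.8 to 20.2) of the 1177 peaks there. Score and width come from the same peak call, so these values describe what the choice by width brought with it. The difference of the medians was 131 here, and 12.6 on the score scale of the replicate 1 list alone. Among the wide peaks themselves, score did not follow width. Spearman's rho was 0.02 over the 434 wide peaks and 0.80 over the 11335 narrower peaks, each a description over peaks of one list. The median score was 150 for the peaks of 1200 to 1299 bp, 132 for 1300 to 1399 bp and 120 for 1400 to 1499 bp. It was 186 for 1500 to 1999 bp, 165 for 2000 to 2999 bp and 79.2 for the 10 peaks of 3000 bp or more. Just below the threshold it was 140 for 900 to 999 bp, 138 for 1000 to 1099 bp and 180 for 1100 to 1199 bp. Medians of this level were thus not particular to wide peaks.

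**Figure D1:**
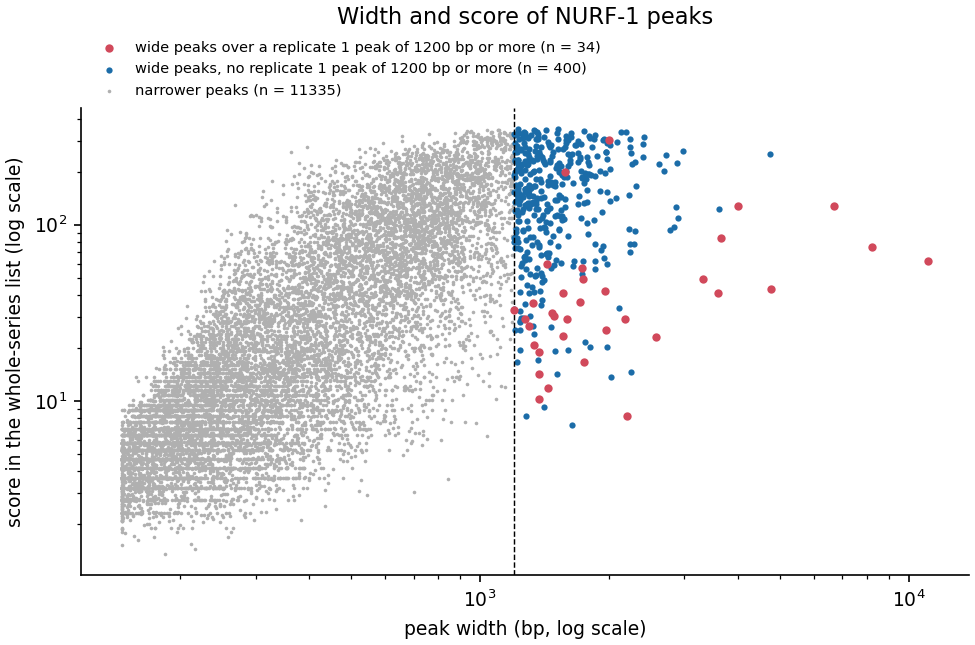
Width in bp (x axis, log scale) and score in the whole-series list (y axis, log scale) of every peak, with the 1200 bp threshold as a dashed line. Red points are the 34 wide peaks that overlap a replicate 1 peak of 1200 bp or more, blue points the other 400 wide peaks and grey points the narrower peaks. Score climbs with width among most narrower peaks and shows no steady climb beyond about 900 bp, and most red points lie below the blue ones.

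In replicate 2 most wide peaks were single wide peaks, and in replicate 1 most were not. An overlap of 1 bp was enough to count. Over all 11769 peaks, 35.9% overlapped a replicate 1 peak, 2.54% overlapped 2 or more, 15.4% had one covering at least 50% of their bases, 2.38% had one covering at least 90%, and 0.425% overlapped one of 1200 bp or more. For replicate 2 the same shares were 94.5%, 1.06%, 93.7%, 82.9% and 3.84%. Replicate 2 held exactly 1 overlapping peak in 371 wide peaks (85.5%, 81.9 to 88.5), 2 or more in 59 (13.6%, 10.7 to 17.1) and none in 4 (0.922%, 0.359 to 2.35). Replicate 1 held exactly 1 in 255 (58.8%, 54.1 to 63.3), 2 or more in 145 (33.4%, 29.1 to 38.0) and none in 34 (7.83%, 5.66 to 10.7). No wide peak lacked a peak in both replicates. The 3 lists describe the same series, so their overlap is not independent evidence of binding. Over the replicates, the share of wide peaks in 2 or more pieces averaged 23.5% ± 14.0 (SD, n = 2). The replicates differed from each other by more than the counting intervals of either.

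**Figure D2:**
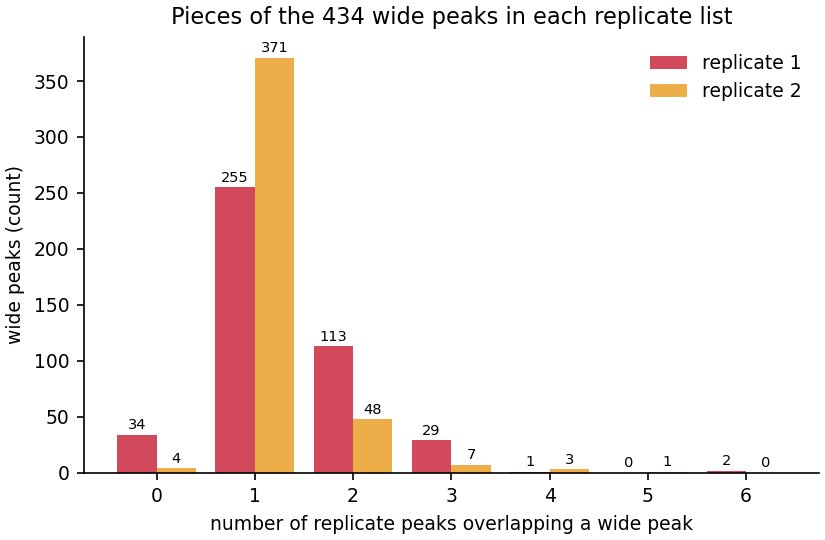
Number of wide peaks (y axis, count) by how many peaks of a replicate list overlap them (x axis), in replicate 1 (red) and replicate 2 (orange). A single overlapping peak is the commonest state in both lists, with 255 wide peaks in replicate 1 and 371 in replicate 2, and 2 pieces are commoner in replicate 1.

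The single peaks differed in extent between the replicates. In replicate 2 the single overlapping peak had a median width of 1395 bp, and its left and right edges lay a median of 9 and 11 bp from those of the wide peak. Both edges fell within 50 bp in 271 of 371 cases (73.0%, 68.3 to 77.3). In replicate 1 the single peak had a median width of 506 bp, its edges lay a median of 391 and 336 bp away, and both fell within 50 bp in 16 of 255 cases (6.27%, 3.90 to 9.95). A single replicate 1 peak was therefore usually a shorter stretch inside the wide peak. The edges of the whole-series list thus lay closer to those of replicate 2 at these positions.

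Coverage showed the same contrast. One replicate 2 peak covered at least 50% of 409 wide peaks (94.2%, 91.6 to 96.1) and at least 90% of 355 (81.8%, 77.9 to 85.1). One replicate 1 peak covered at least 50% of 90 wide peaks (20.7%, 17.2 to 24.8) and at least 90% of 29 (6.68%, 4.69 to 9.43). A replicate 2 peak that was itself 1200 bp or more lay on 360 wide peaks (82.9%, 79.1 to 86.2), and a replicate 1 peak of that width on 34 (7.83%, 5.66 to 10.7). The mean over replicates was 57.5% ± 52.0 for 50% coverage and 45.4% ± 53.1 for a wide replicate peak (SD, n = 2 each), so neither mean stands for either library. The best-scored replicate peak was centred in the middle 33.3% of the wide peak in 392 of 430 cases for replicate 2. For replicate 1 this held in 233 of 400. The longest replicate 2 peak covered a median of 99.6% of the bases of a wide peak, so a central place there follows largely from its extent. A replicate 1 peak that lies inside a wide peak cannot be centred at its edges either. The value of 33.3% is therefore no baseline for these shares. Narrower peaks were not counted in this way.

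Narrower peaks set the scale for these counts. Wide peaks overlapped a replicate 1 peak in 92.2% of cases, against 33.7% of narrower peaks, and were in 2 or more replicate 1 pieces in 33.4% of cases, against 1.36%. For replicate 2 they overlapped in 99.1%, against 94.4%, and were in pieces in 13.6%, against 0.582%. Coverage of at least 50% by one replicate 2 peak, at 94.2% of wide peaks against 93.7% of all peaks, was near the background. So was coverage of at least 90%, at 81.8% of wide peaks and 82.9% of narrower peaks. In replicate 1 coverage of at least 90% was found for 6.68% of wide peaks and 2.21% of narrower peaks. Overlap and piece counts are taken per peak, and wide peaks offer more bases to a replicate peak than narrower ones, so values per length and at like score follow.

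At like score, the contrast in overlap with replicate 1 narrowed more than that in pieces. Narrower peaks weighted to the score bands of the wide peaks overlapped a replicate 1 peak in 81.0% of cases, against 92.2% of wide peaks. They were in 2 or more replicate 1 pieces in 3.62% and in 2 or more replicate 2 pieces in 0.779%. In the best-scored 10%, 37.9% of wide peaks were in replicate 1 pieces, against 4.76% of narrower peaks, while 99.5% of wide and 97.8% of narrower peaks there overlapped replicate 1 at all. Per length, wide peaks held no more replicate 1 peaks than narrower peaks. Such a count does not measure splitting, since an unsplit narrower peak counts as 1 over fewer bases. Over all scores both wide and narrower peaks held 0.836 replicate 1 peaks per kb. In the best-scored band there were 0.936 replicate 1 peaks per kb of wide peak, against 1.27 per kb of narrower peak. Replicate 1 peaks covered 44.3% of the bases of wide peaks there and 49.3% of those of narrower peaks. The longest replicate 1 stretch inside a peak was 544 bp at the median for wide peaks and 358.5 bp for narrower peaks in that band.

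Gaps between pieces were wider in replicate 1. The widest gap inside a wide peak had a median of 278 bp (51 to 2028) over the 145 wide peaks in replicate 1 pieces, against 95 bp (51 to 812) over the 59 in replicate 2 pieces. The smallest gap between neighbouring peaks was 51 bp in each of the 3 lists. When replicate peaks up to 200 bp apart were joined, the mean share in 2 or more pieces fell to 10.9% ± 13.8 (SD, n = 2). As deposited it was 23.5% ± 14.0. The replicates thus stood about as far apart after joining as before, and neither mean stands for either library. For the wide peaks in replicate 2 pieces, the widest gap had an upper quartile of 135.5 bp. That is below the joining distance, so most of them became single. For those in replicate 1 pieces, the median of 278 bp is above it, so most stayed in pieces.

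Crossed over both replicates, 220 wide peaks (50.7%) were 1 peak in each, with a median width of 1358 bp and a median score of 161. A further 120 (27.6%) were 1 peak in replicate 2 and several in replicate 1, with medians of 1522 bp and 184. Only 25 (5.76%) were in several pieces in both, and these were the widest class, at 1854 bp, with a median score of 120. The 31 that were 1 peak in replicate 1 and several in replicate 2 had medians of 1446 bp and 91.3. Among the 34 wide peaks without a replicate 1 peak, the median score was 58.34 (8.24 to 187.73). The best-scored of them lay on chromosome X at 4971019 to 4972478, was 1460 bp wide, scored 187.73 and was 99.0% covered by 1 replicate 2 peak. The widest of chromosome II, at 6826766 to 6829660, belonged here too, with 2895 bp and a score of 108.4. By the number of replicate 1 peaks, the median width was 1388 bp with none, 1371 bp with 1, 1500 bp with 2 and 1974 bp with 3 or more.

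The 10 widest peaks did not share one structure. The widest of all, on chromosome I at 15060260 to 15071378, was 11119 bp wide with a score of 62.47, and was 1 peak in both replicates. That peak measured 11071 bp in the first replicate and 11056 bp in the second. It lay near the right end of that chromosome, the end that carries the ribosomal RNA gene array. No peak was matched to a gene, so whether this peak lies in the array was not tested. The second, on chromosome V at 7916857 to 7925050, was 8194 bp wide with a score of 74.5 and was again 1 peak in each, with widths of 8207 bp (replicate 1) and 8174 bp (replicate 2). These were wide in every list.

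The third, on chromosome V at 17119946 to 17126644, was 6699 bp wide with a score of 128.35 and was in pieces in both replicates. Replicate 1 held 6 peaks in it, of 426, 1567, 1871, 925, 838 and 452 bp from left to right. The middle 4 of these scored 123.64, 113.09, 116.33 and 112.74, and the outer ones 11.19 and 19.37. Replicate 2 held 4 peaks, of which the inner ones measured 2641 and 2991 bp and scored 122.54 and 123.39. Its outer ones scored 20.54 and 35.99. Steps between the midpoints of neighbouring replicate 1 pieces ran between 908 and 1800 bp. The next wide peak on that chromosome lay 1504 bp to the right, at 17128149 to 17132148, with 4000 bp, a score of 126.82, 3 replicate 1 pieces and 2 replicate 2 pieces. Those of replicate 1 scored 30.21, 112.29 and 114.68, and those of replicate 2 scored 123.39 and 120.43. Both members were thus in several pieces in both replicates. Lower-scored pieces stood at the outer edges of the first in both replicates, and at the left edge of the second in replicate 1.

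The remaining very wide peaks varied in how the replicates divided them. On chromosome X, the peak at 109523 to 114303 was 4781 bp wide and scored 43.08. It was 1 peak of 4744 bp in replicate 1 and 5 peaks of 358 to 1718 bp in replicate 2. Also on X, the peak at 16929283 to 16934034 was 4752 bp wide and scored 253.1. Replicate 2 held it as 2 peaks, of 3187 bp with a score of 266.16 and of 1510 bp with a score of 25.38, and replicate 1 as 6 peaks of 313 to 984 bp, of which the leftmost scored 37.22 and the others 9.05 or less. On X at 15807547 to 15811188, a peak of 3642 bp that scored 83.84 was 1 peak in replicate 1 and 3 in replicate 2. On chromosome I at 7081685 to 7085300, a peak of 3616 bp with a score of 121.96 was 1 peak of 3604 bp in replicate 2. Replicate 1 held only 2 short peaks in it, of 195 and 183 bp, 2028 bp apart and covering 10.5% of its bases. The last of the 10 widest were 3584 bp on chromosome I at 3390026 to 3393609, with 2 pieces in each replicate, and 3317 bp on X at 291972 to 295288, with 1 in each. More pieces thus stood in replicate 1 for some members, in replicate 2 for others, and the last ones had equal numbers in both. Narrower than these, a 2180 bp peak on chromosome III at 7444353 to 7446532, with a score of 29.23, was 1 peak in replicate 1 and 4 in replicate 2.

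**Figure D3:**
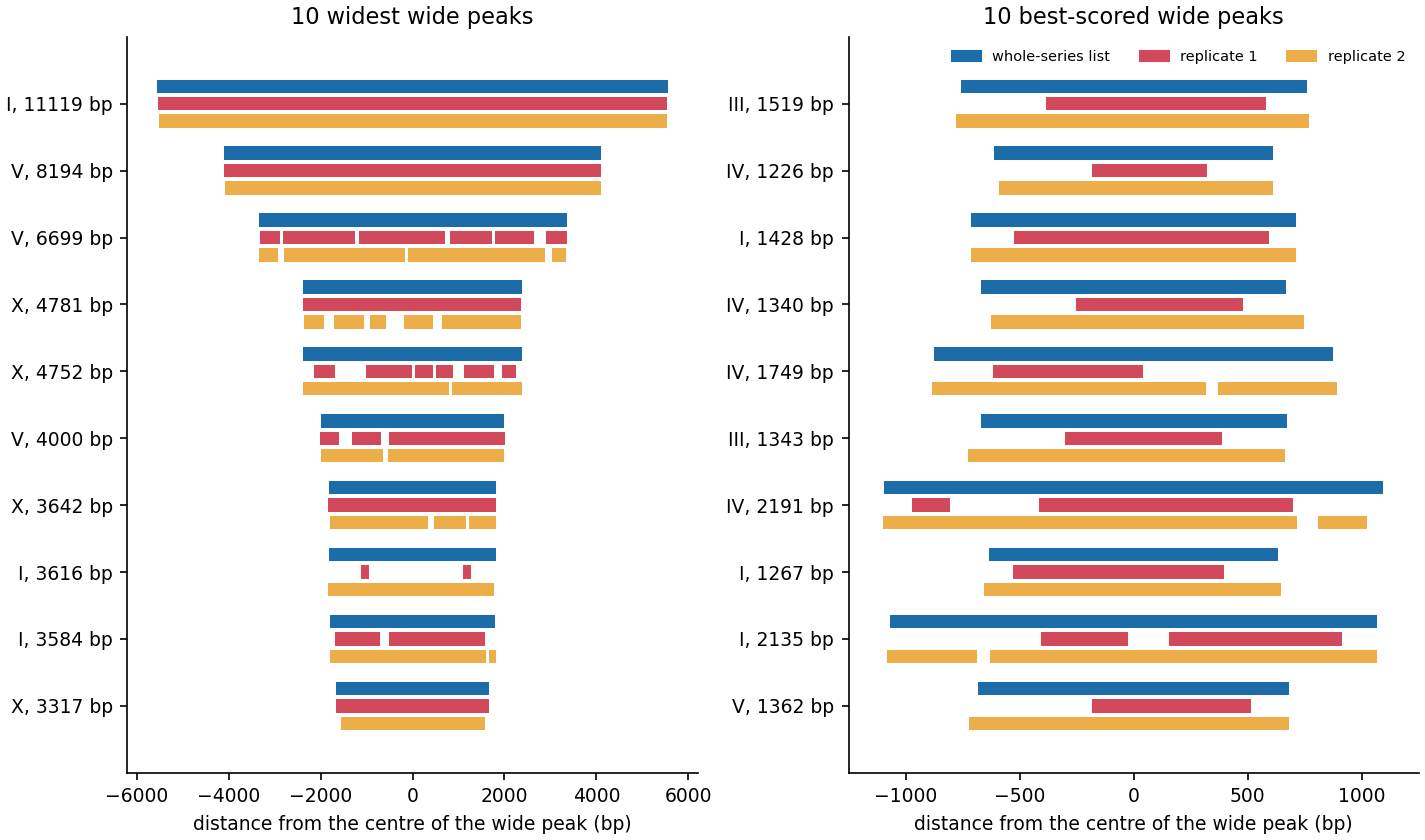
Extent of the 10 widest (left) and the 10 best-scored (right) wide peaks in the whole-series list (blue), with the peaks of replicate 1 (red) and replicate 2 (orange) that overlap them, as distance from the centre of the wide peak in bp. Replicate 2 bars nearly span each best-scored peak while replicate 1 bars are shorter, whereas several of the widest peaks are spanned by one replicate 1 bar.

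The 10 best-scored wide peaks were of moderate width, from 1226 to 2191 bp. The best, on chromosome III at 1618385 to 1619903, was 1519 bp wide and scored 349.58. It was 1 peak of 967 bp in replicate 1, which covered 63.7% of it, and 1 peak of 1548 bp in replicate 2, which covered all of it. The next was a 1226 bp peak on chromosome IV at 1658681 to 1659906, with a score of 349.34 and 41.3% of its bases in 1 replicate 1 peak. A 1428 bp peak on chromosome I at 7020664 to 7022091 scored 345.16 and had 78.4% of its bases in 1 replicate 1 peak. Across the 10, replicate 1 covered between 37.8% and 78.4% of the bases and replicate 2 between 92.7% and 100%. In replicate 1, 8 of the 10 were single peaks, and 2 were pairs, at 17277149 to 17279339 on chromosome IV and 3265233 to 3267367 on chromosome I. The best overlapping peak ranked at the 98.1st percentile or above in replicate 1 and at the 99.4th or above in replicate 2. These members were therefore among the best-scored sites of both replicates, with a shorter span in replicate 1.

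At the other end, the lowest-scored wide peak lay on chromosome V at 3439516 to 3441151, with 1636 bp and a score of 7.32. It held 2 replicate 1 peaks that covered 67.2% and 1 replicate 2 peak that covered 62.0%. Of the other 4 lowest, the peaks at 2077646 to 2079844 and at 2497269 to 2498639 on chromosome III, with scores of 8.15 and 10.21, had no replicate 2 peak. The peak at 10419385 to 10420663 on chromosome IV, with a score of 8.24, had no replicate 1 peak. The peak at 2754873 to 2756280 on the same chromosome, with a score of 9.19, was 3 pieces in replicate 1 and 2 in replicate 2. Each of these lowest-scored wide peaks was thus found in one replicate only, or was covered only in part in both. This describes the listed peaks and not low-scored wide peaks in general.

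A minority of 34 wide peaks were wide in replicate 1 as well. This subset was set apart after its values had been seen, and its comparison with the other 400 is a description. Replicate 1 peaks covered a median of 98.75% of the subset's bases, against 35.6% of those of the other wide peaks. The subset was chosen by a wide replicate 1 peak, so this contrast largely restates the choice. The subset was wider, with a median of 1719.5 bp against 1394 bp, and it held 8 of the 10 widest peaks. Its scores were lower, with a median of 34.27 against 155.75 and quartiles of 23.79 and 54.7 against 91.52 and 237.81. Only 2 of the 34 (5.88%, 1.63 to 19.1) were in the best-scored 10%, against 209 of 400 (52.2%, 47.4 to 57.1). Those 2 were a 1999 bp peak on chromosome IV at 14032502 to 14034500, which scored 303.78, and a 1575 bp peak on chromosome II at 1134127 to 1135701, which scored 198.54.

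Within the replicate lists the subset ranked differently from the other wide peaks. In replicate 2 its best overlapping peak had a median rank percentile of 49.46 (n = 30 with a peak there), against 91.19 (n = 400) for the other wide peaks. In replicate 1 the medians were 79.06 (n = 34), against 72.75 (n = 366). The lists differ in length, so ranks were not compared between them. The subset was in 2 or more replicate 2 pieces in 13 of 34 cases (38.2%, 23.9 to 55.0), against 46 of 400 (11.5%, 8.73 to 15.0). It was in 2 or more replicate 1 pieces in 3 of 34 (8.82%, 3.05 to 23.0), against 142 of 400 (35.5%, 31.0 to 40.3), though a wide replicate 1 peak leaves less room for a further piece. All 4 wide peaks with no replicate 2 peak belonged to this subset. Each had to overlap a replicate 1 peak, since no wide peak lacked a peak in both replicates. They were the peak at 10217786 to 10219227 on chromosome I and those at 2077646 to 2079844, 2497269 to 2498639 and 2498721 to 2500092 on chromosome III. The peaks that start at 2497269 and 2498721 overlap the same replicate 1 peak. The subset thus ranked lower in replicate 2 than other wide peaks did, and was more often in pieces there.

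**Figure D4:**
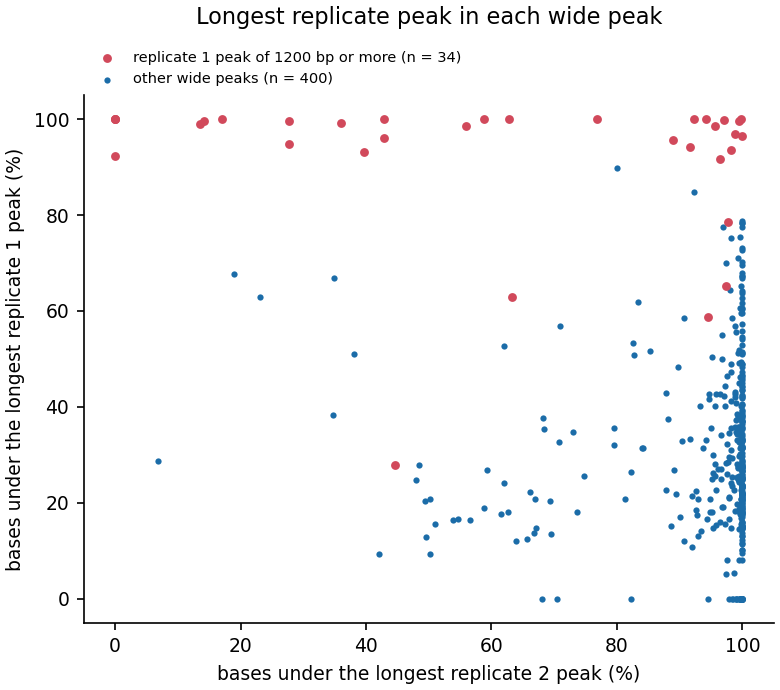
Share of the bases of each wide peak under its longest replicate 2 peak (x axis, %) and its longest replicate 1 peak (y axis, %). Red points are the 34 wide peaks that overlap a replicate 1 peak of 1200 bp or more, and blue points the other 400. Most blue points stand at the right edge near 100% on x and below 80% on y, and most red points stand at the top, spread over the x axis.

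Replicate peaks of 1200 bp or more were rare in replicate 1, at 40 of 4838 (0.827%, 0.608 to 1.12), and as common in replicate 2, at 417 of 11753 (3.55%, 3.23 to 3.90), as in the whole-series list. Of the 40 in replicate 1, 33 overlapped a wide peak and 7 only narrower ones. Of the 417 in replicate 2, 362 overlapped a wide peak and 55 only narrower ones. The reverse of a split occurred once in replicate 1. Its peak on chromosome III at 2497236 to 2501894, 4659 bp wide with a score of 21.44 in that list, spanned 3 wide peaks of the whole-series list. Those were 1371, 1372 and 1750 bp wide, scored 10.21, 19.02 and 16.68, and stood 81 and 71 bp apart. Replicate 2 had no peak in the first and second and covered 21.9% of the third. These 3 members share one replicate 1 peak and are counted 3 times above.

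By chromosome, wide peaks numbered 92 on I, 74 on II, 87 on III, 83 on IV, 64 on V and 34 on X. Per Mb this gave 6.10, 4.84, 6.31, 4.74, 3.06 and 1.92 wide peaks. On X, wide peaks made up 2.21% (1.59 to 3.07) of the peaks, against a mean of 3.91% ± 0.266 (SD, n = 5) over the autosomes, where the values ran between 3.47% and 4.18%. The difference between X and the pooled autosomes was -1.70 percentage points (-2.44 to -0.767). It shrank to -0.711 points among peaks of like score, and the replicate 1 list alone, with its 40 wide peaks, gave 0.651. It was -3.59 points with a width threshold of 1000 bp and -0.505 points with one of 1500 bp. The narrower peaks of X also scored lower, with a median of 13.4 against 16.1 on the autosomes. The widest peak of X measured 4781 bp, those of chromosomes III and IV 2889 and 2315 bp. The widest of chromosome III lay at 9052235 to 9055123 with a score of 223.57 and 3 replicate 1 pieces inside 1 replicate 2 peak. The widest of IV lay at 10935234 to 10937548 with a score of 165.17 and 2 replicate 1 pieces inside 1 replicate 2 peak.

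Along the chromosomes, 178 wide peaks (41.0%, 36.5 to 45.7) had their midpoint in the middle 33.3% of the chromosome, against 4013 narrower peaks (35.4%, 34.5 to 36.3). The difference was 5.61 points (Newcombe interval 0.996 to 10.4). Its sign was the same on 6 of 6 chromosomes. It was largest on chromosome II, at 48.6% against 37.1%, and X, at 41.2% against 31.3%, and smallest on I, at 38.0% against 36.5%. It came to 2.50 points against narrower peaks of like score. In the replicate 1 list alone, with 40 wide peaks, it was -16.4 points. The 34 wide peaks that were wide in replicate 1 lay in the middle 33.3% in 8 cases (23.5%, 12.4 to 40.0), against 170 of the other 400 (42.5%, 37.7 to 47.4). Wide peaks of both kinds were found on all 6 chromosomes.

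Neighbours stood closer to the edges of wide peaks. Another peak lay within 1 kb of 231 wide peaks (53.2%, 48.5 to 57.9), against 4916 narrower peaks (43.4%, 42.5 to 44.3), a difference of 9.86 points (5.07 to 14.6) with the same sign on 6 of 6 chromosomes. The widest differences were on chromosome I, at 60.9% against 45.3%, and V, at 53.1% against 38.8%, and the narrowest on IV, at 44.6% against 43.2%. Peaks stood within 1 kb on both sides of 63 wide peaks (14.5%, 11.5 to 18.1), against 1092 narrower peaks (9.63%, 9.10 to 10.2). The median gap to the nearest edge was 895.5 bp for wide peaks and 1295 bp for narrower peaks. At like score the narrower peaks had a neighbour in 37.8% of cases. In the replicate 1 list alone the difference in share was 42.8 points and that in median gap -3366 bp, against -400 bp in the whole-series list. Measured between midpoints the order turned round, at a median of 2005.5 bp for wide peaks and 1735 bp for narrower peaks. A distance between midpoints includes part of the width of the peak itself.

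**Figure D5:**
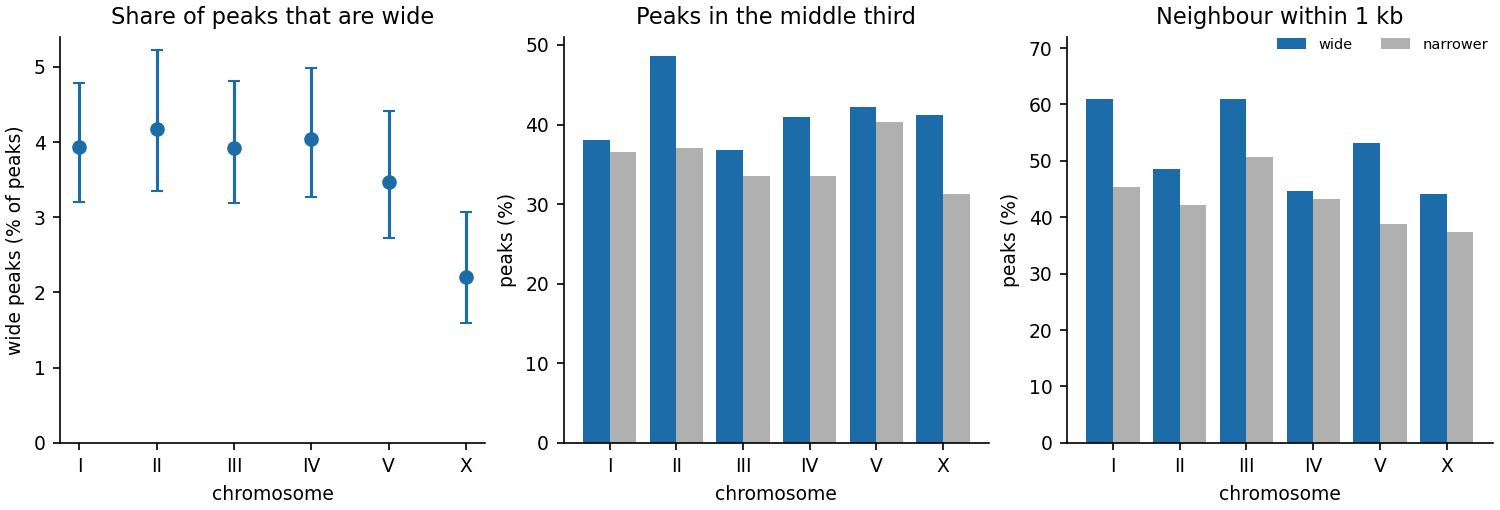
By chromosome, the share of peaks that are wide with 95% Wilson intervals (left, %), the share of peaks in the middle 33.3% of the chromosome (middle, %) and the share with another peak within 1 kb (right, %), for wide peaks (blue) and narrower peaks (grey). The share of wide peaks is lowest on X, and the blue bar is higher than the grey one on each chromosome in both other panels.

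The neighbours themselves were mostly ordinary narrow peaks. The peak nearest to a wide peak had a median width of 370.5 bp and a median score of 14.12, against 348 bp and 16.19 for the peak nearest to a narrower peak. Of the 231 neighbours within 1 kb, 196 (84.8%, 79.7 to 88.9) scored lower than the wide peak beside them. The median wide peak stood at the 89.65th rank percentile of the list. Most peaks of the list thus scored lower than it, wherever they lay. The nearest peak was itself wide for 40 wide peaks (9.22%, 6.84 to 12.3), against 418 narrower peaks (3.69%, 3.36 to 4.05). Successive wide peaks otherwise stood a median of 128818.5 bp apart.

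In all, 38 wide peaks stood within 1 kb of another wide peak, in 16 pairs and 2 runs of 3. The closest pair, on chromosome V, joined a peak at 9340507 to 9341870 with a score of 17.06 to one at 9341926 to 9344908 with a score of 260.54, across a gap of 55 bp. The second pair, on chromosome III at 8799633 to 8801150 and 8801218 to 8802671, scored 210.91 and 274.6 across 67 bp. The third was the pair in the run of 3 on chromosome III, at 2498721 to 2500092 and 2500164 to 2501913, across 71 bp. The other run of 3, on X at 16929283 to 16938890, spanned 9608 bp. Its members were 4752, 1497 and 2026 bp wide, with scores of 253.1, 19.12 and 13.68, and held 6, 4 and 3 replicate 1 peaks and 2, 2 and 4 replicate 2 peaks. The run on chromosome III was a single peak in replicate 1, and that on X was in pieces in both replicates.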

How the data were processed

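The authors deposited 3 peak lists from NURF-1 ChIP sequencing, covering replicate 1, replicate 2 and the series as a whole. The submitters' processing notes name BWA as aligner and ce10 as build. Peaks came from MACS and coordinates are on WS220, per the file headers and source column. The lists give each peak's outer bases and a deposited score of unstated scale, so score levels were compared only within a list. The sources used here give no versions, thresholds, filters or use of input.

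Widths, overlaps (at least 1 bp), edge-to-edge gaps and shares were computed with pandas 2.3.3, NumPy 2.4.6 and SciPy 1.17.1 under Python 3.11.15, and drawn with matplotlib 3.10.9, after the code was tested on simulated data. Chromosome length was the last base of the last peak. Like score means 10 bands of equal peak number, with narrower peaks weighted to the wide peaks' bands. For the difference between X and autosomes, autosomal peaks were weighted to the bands of the X peaks. For the gap, the value of narrower peaks at like score is a weighted mean of band medians. Shares carry 95% Wilson intervals and differences Newcombe intervals. No test was run.

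The members and rules were chosen with earlier results of these data known. The text draws on the 10 widest, 10 best-scored and 5 lowest-scored wide peaks, the 5 with most pieces per replicate, the 3 closest pairs, those at the threshold, and the widest of each chromosome. The subset wide in replicate 1 and the peaks absent from one replicate were chosen after their values were seen. Tried alternatives were the width threshold, a score minimum, each replicate list alone, the overlap rule, like score, end peaks, and distances.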

Additional observations from a re-analysis of the deposited data

How the results depend on the processing

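Of 76 alternative values over 10 results, 54 stayed within the tolerance, 18 moved beyond it and 4 changed sign. The tolerance was 1.5 times for the count and the half-width of a 95% interval for differences in share between peaks. For differences of medians it was the half-width of the interval of the wide peaks' median alone, 12.5 for score and 164 bp for gap. For the shares of wide peaks it was 1 SD over the replicates. That SD was 52.0 points for 50% coverage, 53.1 for a wide replicate peak and 14.0 for 2 or more pieces, so values far apart passed it, such as 10.9% in pieces after joining gaps of 200 bp or less, against 23.5%. A width threshold of 1000 bp gave 826 wide peaks, a difference between X and autosomes of -3.59 points and a gap difference of -224 bp. A threshold of 1500 bp gave 174 wide peaks, a median score difference of 156 and an X difference of -0.505. With only peaks at or above the median score, the score difference was 89.2, the X difference -2.78, the neighbour difference 14.6 points and the gap difference -733 bp. At like score the X difference was -0.711, the neighbour difference 15.4 and the gap difference -716 bp. Distance between midpoints gave a neighbour difference of -23.2 points and a difference in median distance of 270 bp. Taking the nearest wide peak gave a gap difference of -14280 bp. With each replicate left out in turn, the count of wide peaks ranged from 40 to 417 and the share overlapped from 92.2% to 99.1%. The share in 2 or more pieces ranged from 13.6% to 33.4%, that with 50% coverage from 20.7% to 94.2%, and that with a wide replicate peak from 7.83% to 82.9%. The score difference ranged from 12.6 to 140, the X difference from -1.15 to 0.651, the middle-of-chromosome difference from -16.4 to 6.84, the neighbour difference from 10.3 to 42.8 and the gap difference from -3366 to -418 bp. The values at the replicate 1 end, 40 wide peaks, 12.6, 0.651, -16.4, 42.8 and -3366, came from the replicate 1 list alone, and their cause was not tested. No paired analysis was possible because no result comes from a test and the input libraries have no list analysed here.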
